A study of Mus musculus with 2 samples.

Results

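The integrin and focal adhesion genes described here are the mouse genes that code for integrin α and β subunits, together with 12 cytoplasmic proteins that tie integrins to actin. The integrins were chosen by name (protein-coding genes of GENCODE M21 whose symbols begin with Itga or Itgb, leaving out binding partners and Itgbl genes), and the 12 cytoplasmic proteins were listed by symbol. The rule gave 39 genes, all found in the tables, of 42462 genes matched there and of 21474 protein-coding ones. They are 18 α subunits, 9 β subunits and the 12 cytoplasmic proteins. The study measured total RNA of whole embryonic mouse heart in 2 libraries of a single group, biological replicates 1 and 2. Each was made from pooled hearts of male and female B6NCrl embryos at embryonic day 16.5, with no treatment or mutation named in the labels. The pool of replicate 2 held 41 embryos, and the labels do not state the number for replicate 1. Both libraries carry the same donor identifier but separate biosamples, each pool gave 1 library, and the libraries were treated as separate pools.

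Integrins are membrane receptors made of an α and a β subunit that bind matrix proteins or receptors on other cells. Inside the cell, talin and kindlin bind the β tail and switch the receptor to its active form. Vinculin, the complex of ILK, PINCH and parvin, and focal adhesion kinase then join it to actin and to signalling. In heart muscle the same proteins make up costameres, which fasten the outer sarcomeres to the basement membrane, and in blood and vessel cells other integrins serve adhesion and traffic.

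Replicate 1 had 37160624 estimated counts and replicate 2 had 40360242, of which ERCC spike-ins took 1.62% and 3.41%. Levels are given as TPM (TPM is scaled by transcript length, so genes can be compared), and ratios between libraries are replicate 1 over replicate 2. Heart muscle markers summed to 25292 TPM in replicate 1 and 24863 TPM in replicate 2. Marker genes of neighbouring organs were present too. The sum over 9 lung epithelium markers was 1001 TPM in replicate 1 and 132 TPM in replicate 2, with all 9 higher in replicate 1. The sum over 11 thymocyte markers was 124 TPM in replicate 1 and 330 TPM in replicate 2, with all 11 higher in replicate 2. The 8 skeletal muscle markers summed to 37.1 TPM in replicate 1 and 77.9 TPM in replicate 2, all 8 higher in replicate 2. Of these, 6 had enough counts for the 1.5-fold rule given below, and all 6 were past it. They were Mylpf, Tnni2, Tnnt3, Actn3, Myh8 and Myh3. Over all protein-coding genes tested, 5.03% were past the rule (2.68% higher in replicate 2). Past it or not, 62.6% were higher in replicate 1. With 1 group there is no condition to test and no p-value is given. In bulk tissue, fewer cells of a type and less RNA per cell cannot be told apart, and with 1 library a pool a difference between pools may equally be one of library preparation.

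Of the 39 members, 32 (82.1%) reached 1 TPM in each library, against 59.1% of all protein-coding genes, and none was at 0. Summed over subunits, the cytoplasmic proteins stood at 1152 TPM in replicate 1 and 1045 TPM in replicate 2. The β subunits summed to 345 TPM in replicate 1 and 319 TPM in replicate 2, and the α subunits to 211 TPM in replicate 1 and 182 TPM in replicate 2. When the members were set in order of mean TPM, 10 of the 38 steps between neighbours had separate credibility intervals (the authors' range of each TPM estimate) in both libraries, and 28 did not. The lowest gene set apart from the next one down was Itga3. Each interval covers counting and read assignment error, not the spread between animals. For 5 members the deposited TPM lay outside its own interval in at least 1 library (Itgb1, Vcl, Itga9, Itgam and Itgb6).

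**Figure D1:**
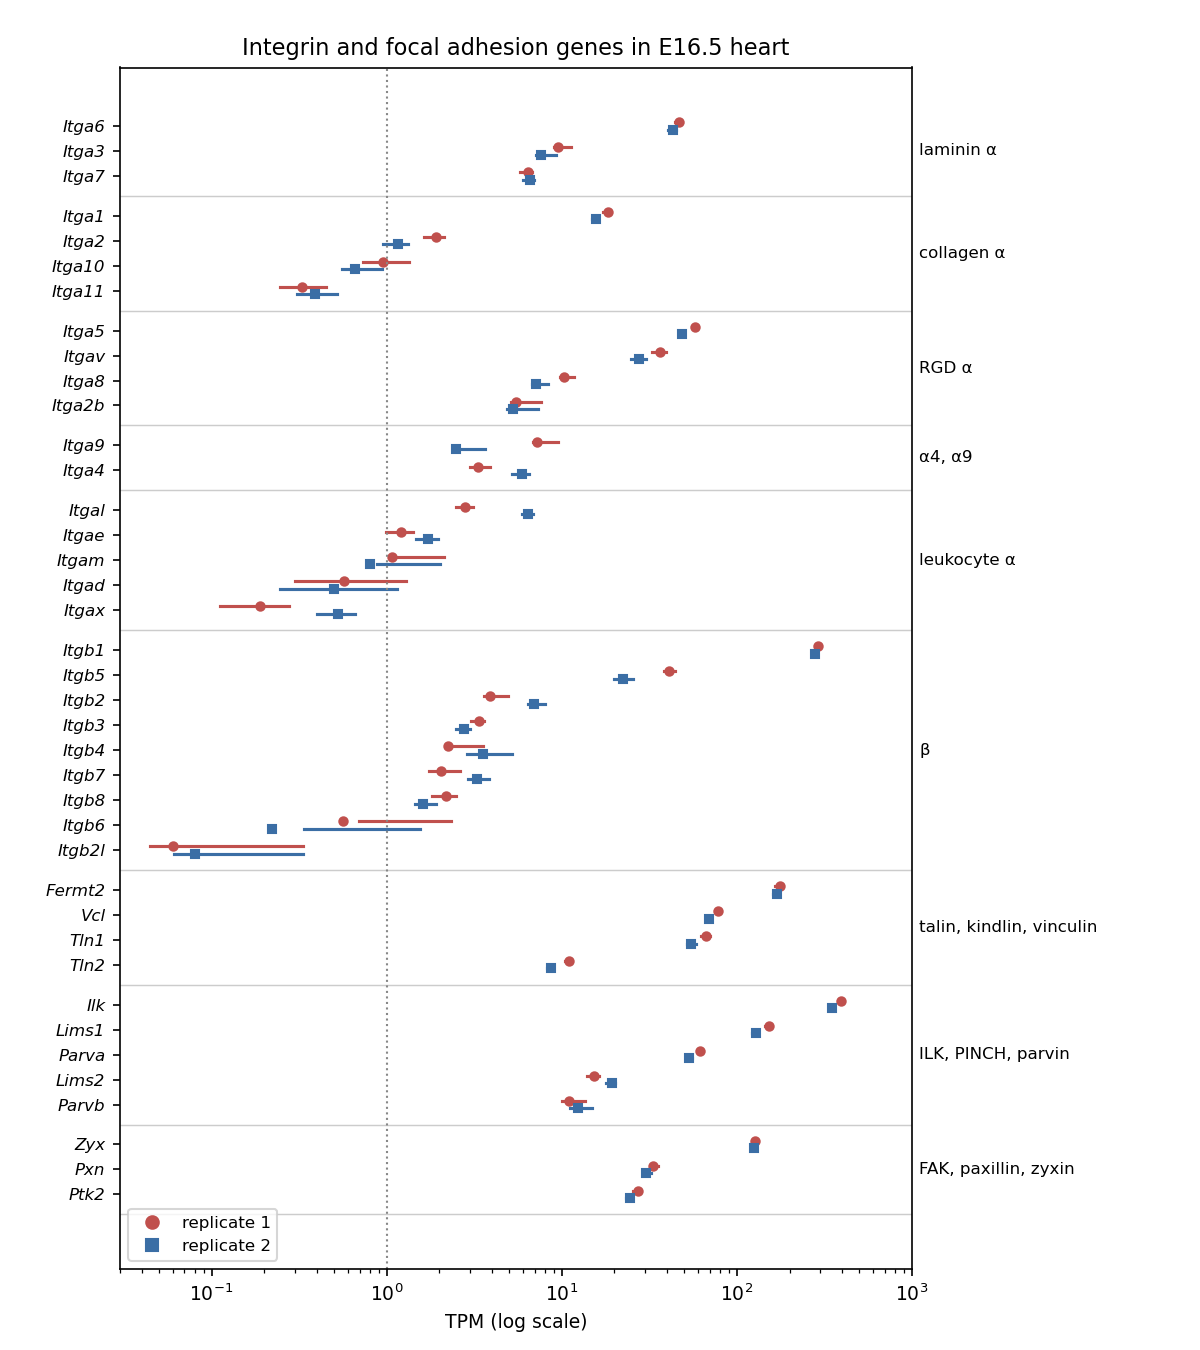
TPM of each member (log axis, by class) in replicate 1 (circles) and replicate 2 (squares), with bars for the deposited credibility interval and a dotted line at 1 TPM. Ilk and Itgb1 stand highest in both libraries, and Itgb2l stands lowest.

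Among the β subunits, Itgb1 (β1, the partner of most α subunits that bind matrix; chr8:128685654-128733200, plus strand, mm10) held 85.6% ± 2.29 of the summed β TPM (SD, n = 2). It had 289 TPM in replicate 1 and 278 TPM in replicate 2. Itgb5 (β5, which pairs with αv and binds vitronectin) held 9.45% ± 3.44, with 41.0 TPM in replicate 1 and 22.4 TPM in replicate 2. Itgb1 was above Itgb5 by 2.82 on the log2 scale in replicate 1 and 3.64 in replicate 2, and by 3.82 on average in counts without a length correction. Itgb5 in turn was 9.94-fold above Itgb3 (β3, which pairs with αIIb in platelets and with αv elsewhere), which had 3.35 TPM in replicate 1 and 2.77 TPM in replicate 2. That log2 ratio was 3.31, against 2.05 in counts without a length correction. The mean of Itgb2, described below with the white blood cell subunits, lay above that of Itgb3. Itgb4 (β4, the partner of α6 in hemidesmosomes) had 2.24 TPM in replicate 1 and 3.53 TPM in replicate 2, and Itgb8 (β8, which with αv activates latent TGF-β) had 2.18 TPM in replicate 1 and 1.62 TPM in replicate 2. Itgb6 (β6, an epithelial subunit) had 0.56 TPM in replicate 1 and 0.22 TPM in replicate 2. Itgb2l, a β2-like gene, rested on 4 estimated counts in replicate 1 and 6 in replicate 2.

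Among the α subunits, Itga5 (α5, the classical fibronectin receptor with β1; chr15:103344286-103366763, minus strand, mm10) was highest, with 27.1% ± 0.582 of the summed α TPM (SD, n = 2). It had 57.9 TPM in replicate 1 and 48.6 TPM in replicate 2. Itga6 followed at 22.9% ± 0.994, Itgav at 16.2% ± 1.44 and Itga1 at 8.68% ± 0.0373. The groups by ligand differed in size. The α subunits that bind RGD motifs (Itga5, Itgav, Itga8, Itga2b) summed to 110 TPM in replicate 1 and 88.5 TPM in replicate 2, and those that bind laminin (Itga6, Itga3, Itga7) to 62.7 TPM in replicate 1 and 57.2 TPM in replicate 2. Those that bind collagen summed to 21.5 TPM in replicate 1 and 18.0 TPM in replicate 2.

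Among the laminin receptors, Itga6 (α6) had 46.8 TPM in replicate 1 and 43.0 TPM in replicate 2, and was 5.26-fold above Itga3 (α3), which had 9.56 TPM in replicate 1 and 7.61 TPM in replicate 2. The log2 ratio of Itga6 to Itga3 was 2.39, against 1.36 on protein-coding transcripts alone and 1.82 in counts. Itga7 (α7, the laminin receptor of mature skeletal and heart muscle) had 6.40 TPM in replicate 1 and 6.62 TPM in replicate 2. Its log2 ratio to Itga6 was -2.87 in replicate 1 and -2.70 in replicate 2, so the order was the same in both, and it averaged -1.60 on protein-coding transcripts alone. Among the collagen receptors, Itga1 (α1) had 18.3 TPM in replicate 1 and 15.8 TPM in replicate 2, 11.4-fold above Itga2 (α2), which had 1.91 TPM in replicate 1 and 1.16 TPM in replicate 2. Itga10 (α10, known from cartilage) had 0.95 TPM in replicate 1 and 0.66 TPM in replicate 2. Itga11 (α11, a fibroblast receptor) had 0.33 TPM in replicate 1 and 0.39 TPM in replicate 2.

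**Figure D2:**
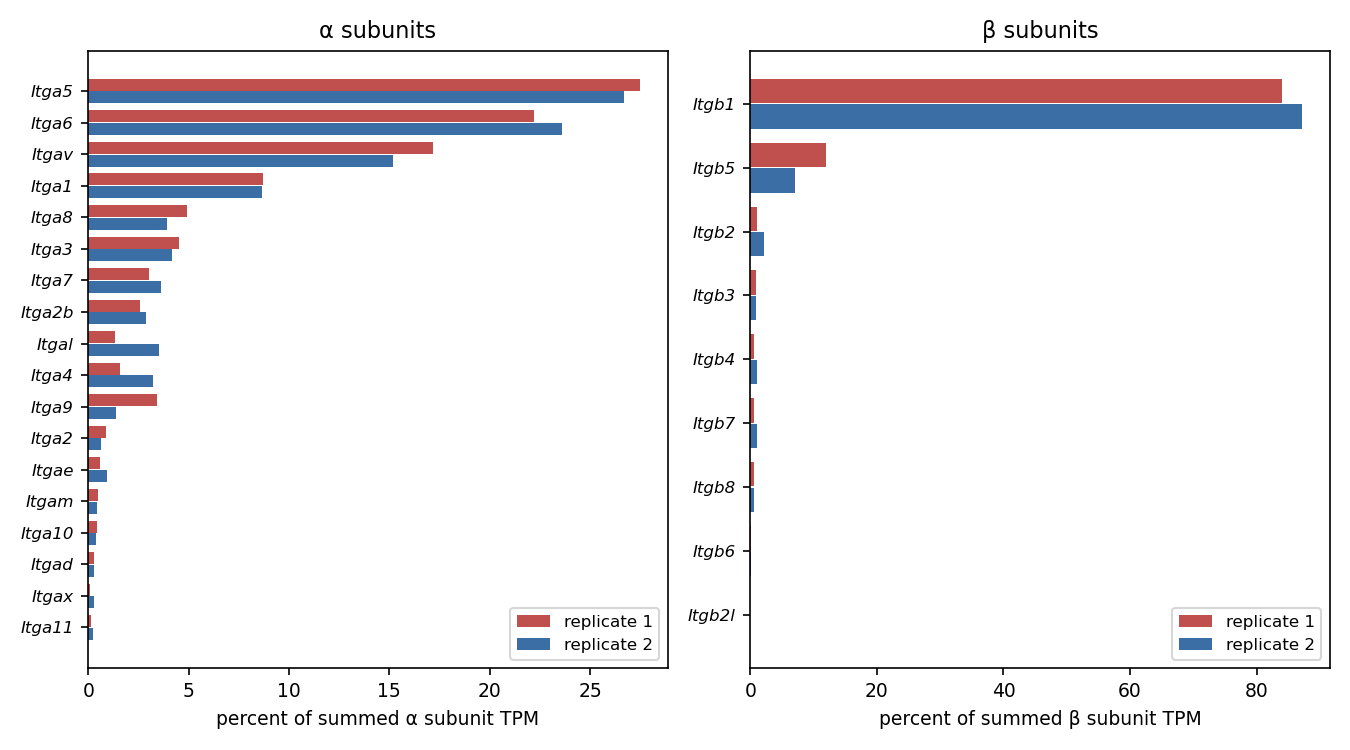
Percent of the summed TPM of the α subunits (left) and β subunits (right) held by each gene in replicate 1 (upper bars) and replicate 2 (lower bars). Itgb1 holds 85.6% of the β sum on average, while the highest α subunit, Itga5, holds 27.1% of the α sum.

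Among the RGD receptors, Itgav (αv, which pairs with several β subunits) had 36.2 TPM in replicate 1 and 27.6 TPM in replicate 2. Itga8 (α8, a receptor of nephronectin) had 10.3 TPM in replicate 1 and 7.10 TPM in replicate 2, 6.19-fold below Itga5. Itga2b (αIIb, the platelet subunit that pairs with β3) had 5.47 TPM in replicate 1 and 5.24 TPM in replicate 2. The log2 ratio of Itgb3 to Itga2b was -0.71 in replicate 1 and -0.92 in replicate 2. That order turned round when only transcripts of 1000 nt or longer were used (log2 ratio 0.22), when only protein-coding transcripts were used (0.35) and when counts were used without a length correction (0.76). Itga2b had 43.0% of its TPM in replicate 1 and 58.4% in replicate 2 on transcripts under 1000 nt. These transcripts held 12.1% and 20.2% of its counts, and Itgb3 had no TPM on such transcripts. The 8 platelet markers summed to 38.8 TPM in replicate 1 and 37.4 TPM in replicate 2.

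The place of Itgav rested on a short transcript. Itgav-205, a 463 nt protein-coding transcript whose bases all lie within the 7054 nt Itgav-201, held 69.2% of the gene's TPM in replicate 1 and 60.7% in replicate 2, but 12.8% and 9.61% of its counts. On transcripts of 1000 nt or longer, Itgav had 10.0 TPM in replicate 1 and 9.18 TPM in replicate 2, below Itga1 (18.3 and 15.8 TPM). The log2 ratio of Itgav to Itga5 was -0.75 on all transcripts, -2.47 on those of 1000 nt or longer and -1.76 in counts. Itga5 had a single transcript in the tables and stayed highest, with 32.8% of the α TPM on that basis. Fermt2 had the same property: 64.4% of its TPM in replicate 1 and 59.6% in replicate 2 lay on transcripts under 1000 nt. These were the only 2 expressed members with most of their TPM on such transcripts in both libraries, against 11.4% of all expressed protein-coding genes. A 937 nt processed transcript of Tln1 held 34.0% of its TPM in replicate 1 and 43.4% in replicate 2, and Itgb5-204, of 265 nt, held 8.35% of Itgb5's TPM in replicate 1 and 32.7% in replicate 2. Of 26 members with at least 1 TPM on average and more than 1 transcript, none was led by a transcript not annotated as protein-coding, against 9.1% of such protein-coding genes.

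**Figure D3:**
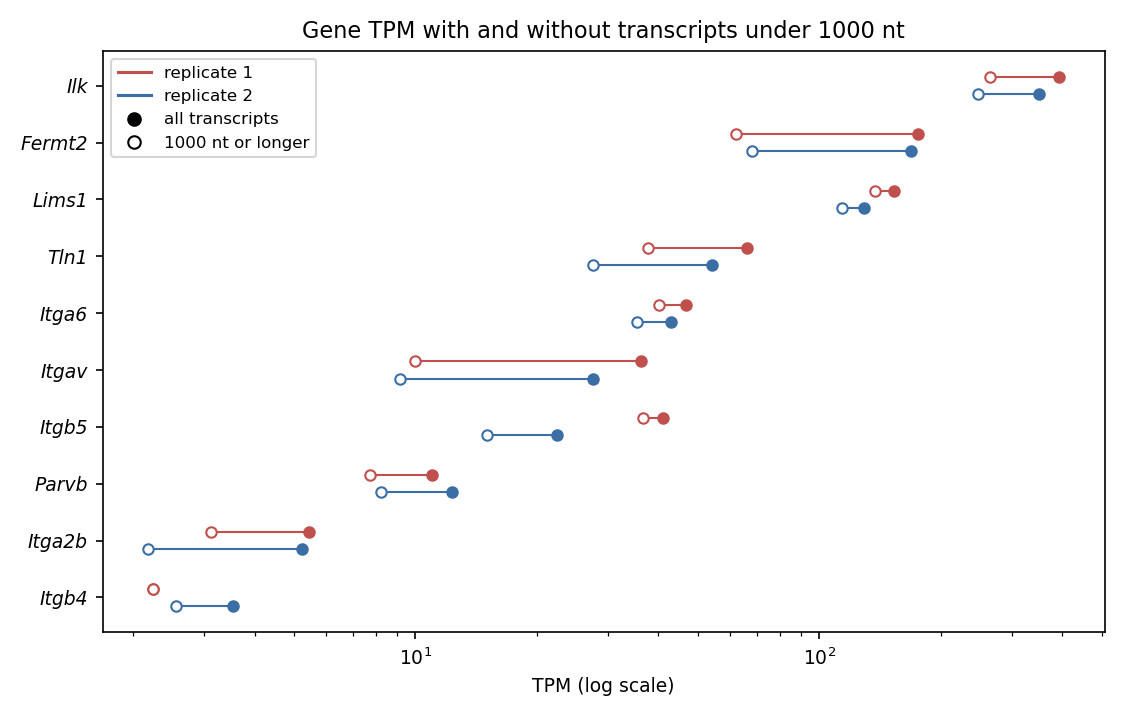
Gene TPM (log axis) from all transcripts (filled) and from transcripts of 1000 nt or longer (open) for the members at 1 TPM or more on average with 10% or more of their TPM on shorter ones, replicate 1 above replicate 2 in each row. Among those shown, Itgav moves furthest on this log axis, to 10.0 TPM in replicate 1 and 9.18 TPM in replicate 2.

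Members of the talin, kindlin and vinculin group stood high. Fermt2 (kindlin-2, the kindlin of most tissues) had 175 TPM in replicate 1 and 169 TPM in replicate 2, and was 12.2-fold above Fermt3 (kindlin-3, of blood cells). That log2 ratio of 3.61 was 2.21 on transcripts of 1000 nt or longer and 2.98 in counts. Vcl (vinculin, which binds talin and actin under load) had 78.2 TPM in replicate 1 and 69.7 TPM in replicate 2. Tln1 (talin-1) had 66.4 TPM in replicate 1 and 54.4 TPM in replicate 2, above Tln2 (talin-2, the main talin of adult heart muscle), which had 11.0 TPM in replicate 1 and 8.63 TPM in replicate 2. The Tln1 to Tln2 ratio was 2.59 in replicate 1 and 2.65 in replicate 2 on the log2 scale. It averaged 1.77 on protein-coding transcripts, 1.73 on transcripts of 1000 nt or longer and 1.22 in counts, all in the same direction.

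The complex of ILK, PINCH and parvin summed to 634 TPM in replicate 1 and 564 TPM in replicate 2, the highest sum of any class. Ilk (integrin-linked kinase, a pseudokinase that binds the β1 tail; chr7:105736592-105742925, plus strand, mm10) had 393 TPM in replicate 1 and 350 TPM in replicate 2, the highest member. Ilk shares 2106 exon bases, 76.7% of those annotated for it, with Taf10 on the opposite strand, and Taf10 had 79.1 TPM in replicate 1 and 71.1 TPM in replicate 2. Whether counting used strand is not given in the sources used here, and 14 members share exon bases with another gene, 11 of them with one on the opposite strand. Lims1 (PINCH1) had 153 TPM in replicate 1 and 129 TPM in replicate 2, 8.14-fold above Lims2 (PINCH2), which had 15.4 TPM in replicate 1 and 19.4 TPM in replicate 2. Parva (α-parvin) had 61.6 TPM in replicate 1 and 53.1 TPM in replicate 2, 4.91-fold above Parvb (β-parvin), which had 11.0 TPM in replicate 1 and 12.3 TPM in replicate 2. Their log2 ratio was 2.30, against 3.0 in counts.

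In the signalling group, Zyx (zyxin, an actin-repair LIM protein) had 127 TPM in replicate 1 and 124 TPM in replicate 2. Pxn (paxillin, an adaptor) had 33.2 TPM in replicate 1 and 30.2 TPM in replicate 2. Ptk2 (focal adhesion kinase) had 27.2 TPM in replicate 1 and 24.5 TPM in replicate 2, 1.78-fold above Ptk2b (PYK2, its relative), which had 14.2 TPM in replicate 1 and 14.8 TPM in replicate 2. Over all 17 fixed pairs, 16 had the same direction in both libraries with intervals separate in each. The exception was Itga9 over Itga4, at 1.12 on the log2 scale in replicate 1 and -1.25 in replicate 2. Itgam over Itgal kept its direction, but its mean was within 2 SD of 0. Its log2 ratio was -1.38 in replicate 1 and -3.01 in replicate 2. Averaged over both libraries, it ranged from -2.79 on protein-coding transcripts to -1.53 with posterior mean TPM.

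The cytoplasmic tails of integrins decide which proteins they bind, and the annotated alternative tail exons of 3 members, Itgb1, Itga6 and Itga3, are described here. The sequences are shown because it is these exons that tell the forms apart. Coding bases are in capitals and the stop codon is in lower case, and all are from GENCODE M21 transcripts on GRCm38, the same assembly as mm10. The Itgb1 D tail lies at chr8:128726983-128727057 and its A tail at chr8:128732023-128732088, both on the plus strand.
Itgb1 D tail: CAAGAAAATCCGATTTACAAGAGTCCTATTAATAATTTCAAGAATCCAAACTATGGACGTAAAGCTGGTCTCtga
Itgb1 A tail: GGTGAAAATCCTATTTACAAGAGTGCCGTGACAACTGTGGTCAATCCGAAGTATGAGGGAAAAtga
The Itga6 A tail lies at chr2:71853534-71853641 and its B tail at chr2:71855854-71856015, both on the plus strand.
Itga6 A tail: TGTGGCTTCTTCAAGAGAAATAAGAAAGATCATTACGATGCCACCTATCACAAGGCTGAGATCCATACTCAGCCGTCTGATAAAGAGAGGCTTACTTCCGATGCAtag
Itga6 B tail: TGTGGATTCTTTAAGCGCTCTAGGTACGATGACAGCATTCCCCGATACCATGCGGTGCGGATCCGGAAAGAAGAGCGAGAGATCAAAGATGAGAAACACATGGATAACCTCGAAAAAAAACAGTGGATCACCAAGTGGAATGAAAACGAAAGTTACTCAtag
The Itga3 A tail lies at chr11:95046480-95046590 and its B tail at chr11:95045608-95045763, both on the minus strand.
Itga3 A tail: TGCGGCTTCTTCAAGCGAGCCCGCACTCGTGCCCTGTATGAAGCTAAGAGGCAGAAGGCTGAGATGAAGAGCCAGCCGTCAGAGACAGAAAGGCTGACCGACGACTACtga
Itga3 B tail: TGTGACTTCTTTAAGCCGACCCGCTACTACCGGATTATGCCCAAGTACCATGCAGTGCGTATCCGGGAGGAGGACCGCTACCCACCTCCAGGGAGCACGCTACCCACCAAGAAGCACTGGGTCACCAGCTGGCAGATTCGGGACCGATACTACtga

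Of the first 63 coding bases, 41 were identical between the Itgb1 D and A tails when set end to end without gaps. The A and B tails of Itga6 shared 47 of 105 bases, and those of Itga3 shared 36 of 108. Between the genes, the A tails of Itga6 and Itga3 shared 36 of 105 bases and the B tails 68 of 153. All these counts allow no gaps, so where tails differ in length, like stretches may fall out of register and be missed. Over the first 15 bases, the A tails of Itga6 and Itga3 shared 14 and their B tails 13. Within genes, the tails shared 13 of these bases in Itga6, 12 in Itga3 and 11 in Itgb1. In Itgb1, the D tail (β1D, the form of striated muscle) had 10.2 TPM in replicate 1 and 17.4 TPM in replicate 2, against 278 TPM and 260 TPM for the A tail. This was 3.52% of both forms in replicate 1 and 6.27% in replicate 2, but 0.60% and 1.09% of the gene's counts. The D tail is annotated on a 711 nt transcript that shares all but 81 bases with the full-length one, so its level rests on those bases and on how reads were assigned. In Itga6, the A tail had 22.4 TPM in replicate 1 and 17.5 TPM in replicate 2, and the B tail 16.0 TPM in replicate 1 and 16.4 TPM in replicate 2. The B tail level came from a processed transcript of 2721 nt. In Itga3, the A tail had 7.29 TPM in replicate 1 and 4.68 TPM in replicate 2, and the B tail 1.43 TPM in replicate 1 and 2.10 TPM in replicate 2. The A tail was 76.3% ± 10.3 of both forms in Itga3 and 54.9% ± 4.78 in Itga6 (SD, n = 2 each). Itga7 and Vcl, which also have muscle splice forms, had 1 transcript each in the tables, so their forms were not analysed here.

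**Figure D4:**
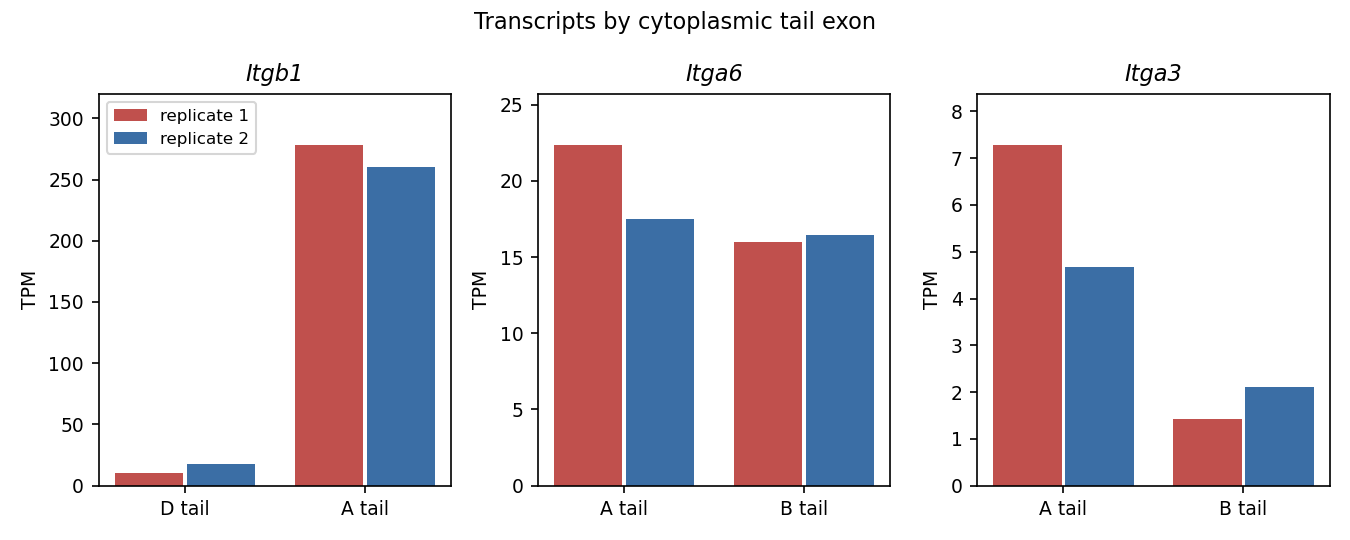
TPM of transcripts with each tail exon in replicate 1 (left bars) and replicate 2 (right bars) for Itgb1, Itga6 and Itga3, on separate axes that start at 0. The D tail of Itgb1 is at 10.2 TPM in replicate 1 and 17.4 TPM in replicate 2, far under the A tail.

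Among members with a mean of at least 100 estimated counts, 7 of 34 (20.6%) were more than 1.5-fold apart with separate intervals, against 5.03% of all protein-coding genes. Of these, 3 were higher in replicate 1 and 4 in replicate 2, against backgrounds of 2.35% and 2.68%. The median log2 ratio of members was 0.17, against 0.06 over all protein-coding genes tested, and 25 of 34 members were higher in replicate 1, as were 62.6% of all protein-coding genes tested.

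The 4 that were higher in replicate 2 are known from white blood cells. Itgal (αL, the LFA-1 subunit of lymphocytes) had 2.79 TPM in replicate 1 and 6.45 TPM in replicate 2, a log2 ratio of -1.18. Its partner Itgb2 (β2) had 3.89 TPM in replicate 1 and 6.94 TPM in replicate 2 (log2 ratio -0.82). Itgb7 (β7, a partner of α4 and αE) had 2.04 TPM in replicate 1 and 3.29 TPM in replicate 2 (-0.66). Itga4 (α4, a receptor of VCAM1) had 3.33 TPM in replicate 1 and 5.89 TPM in replicate 2 (-0.80), and it is also known from epicardium, whose 6 markers summed to 123 TPM in replicate 1 and 127 TPM in replicate 2. Thymocyte markers moved the same way, with 9 of the 9 that had enough counts apart. The background was 5.03% of all protein-coding genes (2.68% higher in replicate 2). The 9 were Lck, Cd3g, Cd3e, Cd3d, Ptcra, Rag1, Rag2, Cd8b1 and Cd8a, for example Lck at 38.4 TPM in replicate 1 and 95.9 TPM in replicate 2. None of the 11 thymocyte markers was at 0. The 10 leukocyte markers summed to 208 TPM in replicate 1 and 296 TPM in replicate 2. Of the 10, 3 were apart, against the same background, and all 3 were higher in replicate 2. These were Ptprc (CD45) at 8.22 TPM in replicate 1 and 21.7 TPM in replicate 2, Coro1a at 48.4 TPM in replicate 1 and 104 TPM in replicate 2, and Cd52 at 13.9 TPM in replicate 1 and 22.8 TPM in replicate 2. The macrophage genes among them did not pass the rule, for example C1qb at 34.5 TPM in replicate 1 and 35.4 TPM in replicate 2, and Csf1r at 11.5 TPM in replicate 1 and 10.3 TPM in replicate 2. None of the 10 was at 0. The part of thymocytes or other blood cells in these differences was not tested.

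The other leukocyte α subunits were low. Itgae (αE, of intraepithelial lymphocytes) had 1.20 TPM in replicate 1 and 1.72 TPM in replicate 2. Itgam (αM, of macrophages and granulocytes) had 1.07 TPM in replicate 1 and 0.80 TPM in replicate 2. Neither passed the rule. Itgax (αX, of dendritic cells) had 0.19 TPM in replicate 1 and 0.53 TPM in replicate 2, and Itgad (αD) had 0.57 TPM in replicate 1 and 0.50 TPM in replicate 2, both with a mean under 100 counts. Itgb6 also had too few counts for the rule, and the intervals of Itgb4 overlapped between the libraries. Itgam, Itgax and Itgad are neighbours on chromosome 7, with gaps of 11.1 kb and 3.72 kb and no protein-coding gene between.

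Higher in replicate 1 were 3 subunits. Itga9 (α9, which binds tenascin and is needed for lymphatic valves) had 7.26 TPM in replicate 1 and 2.48 TPM in replicate 2, a log2 ratio of 1.51. Itgb5 had a log2 ratio of 0.87 and Itga2 one of 0.67. Lung epithelium markers moved the same way, with 6 of the 7 that had enough counts apart (Sftpc, Sftpb, Sftpa1, Cldn18, Nkx2-1 and Cdh1). The background was 5.03% of all protein-coding genes (2.35% higher in replicate 1). Sftpc, for example, had 883 TPM in replicate 1 and 96.7 TPM in replicate 2. None of the 9 was at 0. The part of lung tissue in these 3 differences was not tested. All 7 smooth muscle markers were higher in replicate 1, against 62.6% of all protein-coding genes tested. They summed to 1374 TPM in replicate 1 and 1154 TPM in replicate 2, and none was past the rule. Of 8 fibroblast markers, 6 were higher in replicate 1, against the same 62.6%. The 8 summed to 2739 TPM in replicate 1 and 2359 TPM in replicate 2. Pdgfra alone among them was past the rule, with 13.1 TPM in replicate 1 and 8.26 TPM in replicate 2. The 7 endothelium markers summed to 461 TPM in replicate 1 and 408 TPM in replicate 2. Of these, 6 were higher in replicate 1, again against 62.6%, and none was past the rule. The part of smooth muscle cells, fibroblasts or endothelial cells was not tested.

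**Figure D5:**
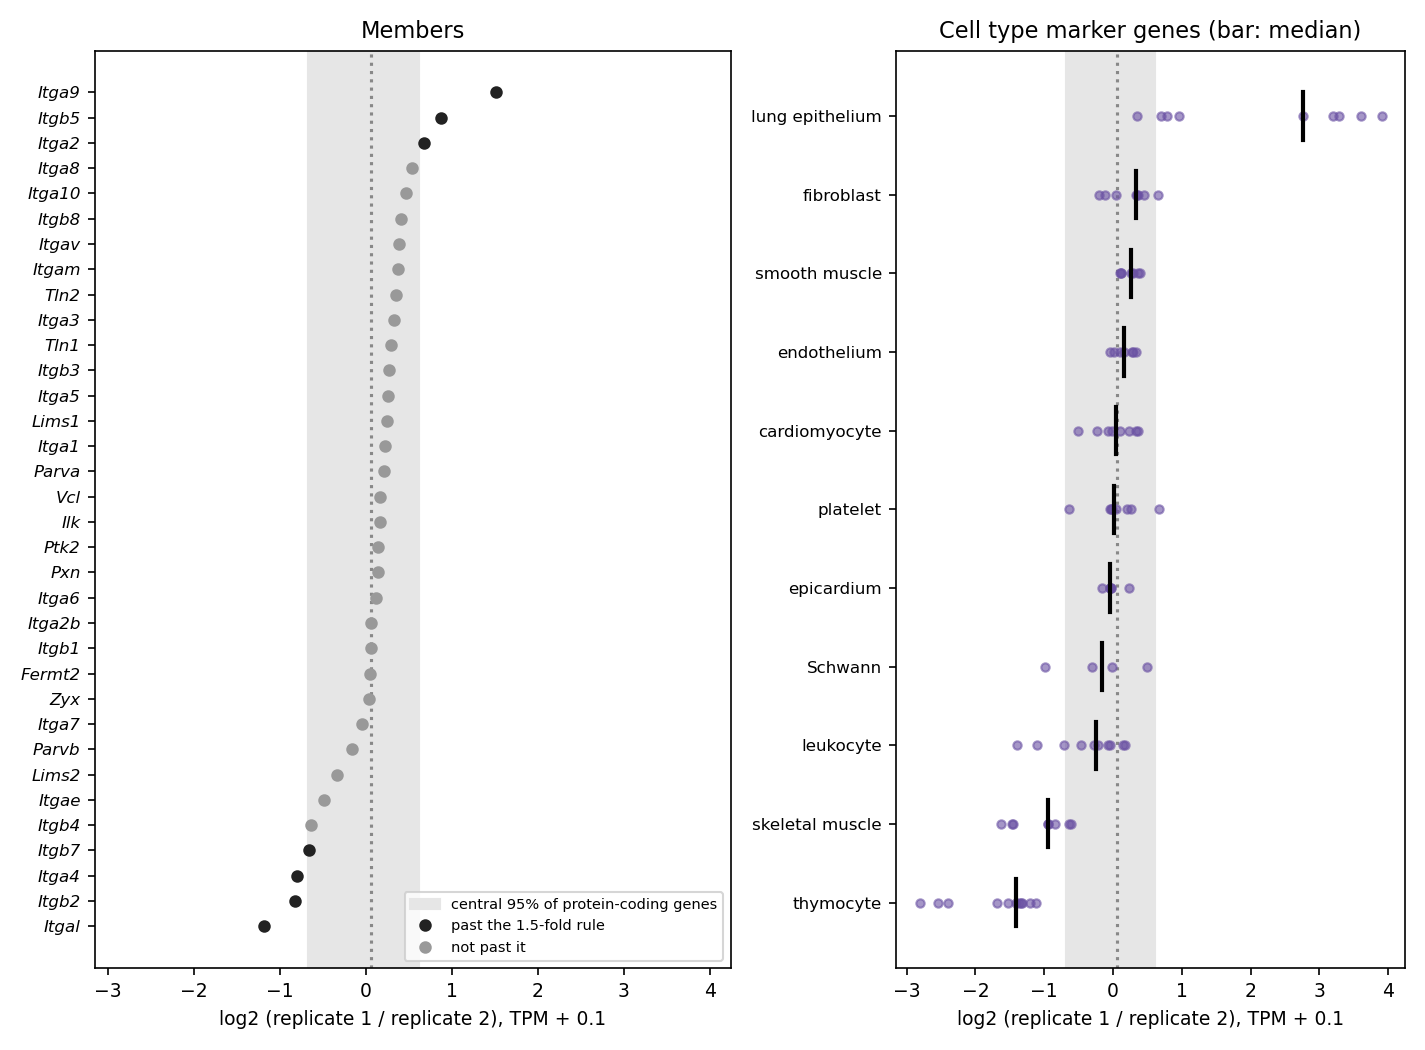
Log2 ratio of replicate 1 over replicate 2 (TPM + 0.1) for members with 100 or more mean counts (left; black points are past the 1.5-fold rule) and for cell type markers (right; bar, median). The grey band spans the central 95% of protein-coding genes, from -0.68 to 0.61. Among the members shown, Itgal and Itga9 lie furthest from the median.

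Of 33 other adhesion genes fixed as a list, all 33 reached 1 TPM in both libraries, against 59.1% of all protein-coding genes. The highest were Actn4 (α-actinin-4) at 216 TPM in replicate 1 and 185 TPM in replicate 2, and Tgfb1i1 (Hic-5, a paxillin relative) at 140 TPM in replicate 1 and 127 TPM in replicate 2. Flna (filamin A) had 147 TPM in replicate 1 and 102 TPM in replicate 2, Rsu1 (a PINCH partner) had 119 TPM in replicate 1 and 109 TPM in replicate 2, and Tns1 (tensin-1) had 124 TPM in replicate 1 and 96.4 TPM in replicate 2. Of the 32 with enough counts, 3 were past the 1.5-fold rule, against the background of 5.03% (2.68% higher in replicate 2), and all 3 were higher in replicate 2. These were Fermt3 at 11.0 TPM in replicate 1 and 18.0 TPM in replicate 2, Parvg (γ-parvin, of blood cells) at 6.95 TPM in replicate 1 and 17.1 TPM in replicate 2, and Apbb1ip (RIAM, of blood cells) at 2.04 TPM in replicate 1 and 3.54 TPM in replicate 2.

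Of 24 genes for integrin ligands, 23 reached 1 TPM in both libraries, against 59.1% of all protein-coding genes. Collagens led, with Col3a1 at 952 TPM in replicate 1 and 741 TPM in replicate 2. Col1a1 had 668 TPM in replicate 1 and 532 TPM in replicate 2, Col1a2 had 386 TPM in replicate 1 and 304 TPM in replicate 2, and Col4a1 had 180 TPM in replicate 1 and 130 TPM in replicate 2. Mfge8, an RGD ligand, had 232 TPM in replicate 1 and 187 TPM in replicate 2. Of the 22 with enough counts, 4 were past the 1.5-fold rule, against the background of 5.03% (2.35% higher in replicate 1), and all 4 were higher in replicate 1. Lama5 (laminin α5) had 26.8 TPM in replicate 1 and 14.0 TPM in replicate 2, Npnt (nephronectin, the α8 ligand) had 17.1 TPM in replicate 1 and 9.33 TPM in replicate 2, and Thbs1 had 28.3 TPM in replicate 1 and 15.9 TPM in replicate 2. Cdh1 (E-cadherin, which binds αE) had 15.4 TPM in replicate 1 and 9.45 TPM in replicate 2, and it is also one of the lung epithelium markers.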

How the data were processed

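Total RNA sequencing tables were used for 2 libraries of 1 group, with 1 technical replicate each. Per the labels, a mirVana kit was used for extraction, RNA over 200 nt was kept and 10 ng entered each library. Per the file headers, the authors quantified reads on mm10 with annotation M4. The deposited tables hold estimated counts, not normalized and not whole, and the deposited TPM, computed by the authors over all rows including spike-ins. Transcripts carry a percent of gene TPM in the deposited tables, and the deposited credibility intervals have no stated level. The sources used here do not give aligner, quantifier or strand use. Short transcripts gain TPM from few counts.

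Genes were matched by identifier without version to GENCODE M21 (GRCm38, the same assembly as mm10). Of 187 transcripts of members, 182 matched and 164 had the same length. Expressed means at least 1 TPM in each library. Libraries were called apart at a log2 ratio of TPM + 0.1 over that of 1.5-fold, a mean of at least 100 estimated counts and intervals that did not overlap. A gene pair was called when its direction was the same in both libraries with separate intervals. TMM factors and size factors were computed with edgeR 4.0.16 and DESeq2 1.42.0 (R 4.3.3) on counts rounded to whole numbers; the biological coefficient of variation was 0.198. Tables were made with Python 3.11.15, numpy 2.4.6 and pandas 2.3.3, and the fold rule was tested on simulated data. The libraries held 37160624 and 40360242 counts. Reads carry no molecular identifiers, so intervals cover counting and assignment error only. The members and gene lists were chosen with earlier results of these data known. Every member was named; of other lists, up to 5 with the highest TPM and those past the rule, except that marker lists are given as sums with the names past the rule and examples of values. Alternatives covered thresholds, scaling, pseudocounts, transcript classes and leaving out each library.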

Additional observations from a re-analysis of the deposited data

How the results depend on the processing

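No paired analysis was possible because there is 1 group. Leaving out 1 library, the members expressed ranged from 32 to 33 and the Itgb1 share of β TPM from 84.0% to 87.2%. The Itga5 share of α TPM ranged from 26.7% to 27.5%. The pairs that differ were 17 in each run, but with 1 library the 2 directions need not match, so this does not show stability. The added pair, Itga9 over Itga4, was called in opposite directions, at 1.12 without replicate 2 and -1.25 without replicate 1. The members led by a transcript not annotated protein-coding ranged from 0 to 1. The 1, without replicate 2, was Itgae, whose retained-intron transcript held 52.5% in replicate 1. The members apart fell to 2 at a fold of 2, against 7, and were 5 to 8 under the other settings. The Itga5 share was 26.4% with posterior mean TPM, 30.5% with counts not corrected for length, 33.0% with protein-coding transcripts and 32.8% with transcripts of 1000 nt or longer; the last alternative was chosen after seeing the data. The order of Itgb3 and Itga2b turned round, from a main log2 ratio of -0.81, to 0.76 with counts, 0.35 with protein-coding transcripts and 0.22 with transcripts of 1000 nt or longer; the cause was not tested. No other called pair turned round, but of 17 pairs 11 moved by more than their SD with counts, 5 with protein-coding transcripts, 5 with transcripts of 1000 nt or longer and 1 with posterior mean TPM. Pair calls on counts or transcript classes used direction alone, as they have no intervals. At 2 libraries, the spread of a single gene is poorly known, and members under 100 counts can carry intervals wide for their level. Itgb2l, at 0.06 TPM in replicate 1, had an interval there from 0.045 to 0.33 TPM.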

Other observations

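Of the genes with integrin-like symbols that the naming rule leaves out, Itgb1bp2 (melusin, a muscle protein that binds β1) had 88.7 TPM in replicate 1 and 83.2 TPM in replicate 2. Itgb1bp1 (ICAP-1, which binds the β1 tail) had 32.5 TPM in replicate 1 and 30.8 TPM in replicate 2, and Itgb3bp had 23.5 TPM in replicate 1 and 25.3 TPM in replicate 2. Itgbl1 had 0.74 TPM in replicate 1 and 1.34 TPM in replicate 2. The transcript make-up of Itgal differed between the 2 deposited estimates: in replicate 1, Itgal-202 held 61.9% of the gene's TPM and Itgal-201 held 0%, against 29.6% and 27.8% with posterior mean TPM. In replicate 2 Itgal-202 held 15.7% and Itgal-201 held 40.4%, against 15.9% and 37.7% with posterior mean TPM. Itgal-203 was highest in both libraries with posterior mean TPM, at 39.1% in replicate 1 and 44.6% in replicate 2.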
